A study of Mus musculus with 12 samples.

Results

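Dpt and Pi16 type fibroblasts are collagen-making cells that carry transcripts of Dpt, the matrix protein dermatopontin, and of Pi16, a secreted peptidase inhibitor. They were looked for here in single-cell RNA data from 12 mammary tumours of mice on the FVBN strain, and 242 of the 7366 cells with at least 200 detected genes qualified, in 10 of the 12 tumours. The cells were selected on their own transcripts. A cell needed no UMI (a unique molecular identifier, which stands for 1 captured transcript) of Ptprc, the pan-leukocyte antigen CD45, and at least 1% of its UMIs from Col1a1, Col1a2 and Col3a1. It also needed at least 3 UMIs over the 6 genes Dpt, Clec3b, Pi16, Efemp1, Ogn and Sfrp4, and more of these than of either of a pair of rival sums. The first rival sum was Thbs4, C1qtnf3, Cilp, Fmod, Mfap4 and Itgbl1. The other was Mmp13, Mmp10, Lrrc15, Tnn, Actg2 and Aldh1a2. The same rule turned round gave 205 cells of a Thbs4/Fmod type and 662 of an Mmp13/Lrrc15 type among the 1221 collagen cells. The levels of these genes describe how the cells were chosen. They are tested in no comparison of types or groups below, and enter only the checks for single outlying tumours near the end.

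All 12 tumours came from untreated mMTV-Cre/HER2 Crainbow mice, in which Cre recombinase, driven by the MMTV promoter, switches on forms of the human receptor tyrosine kinase HER2, each with a fluorescent marker, in mammary epithelium. 5 tumours from nulliparous mice carried the form labelled p95 HER2, at 20, 17, 15, 16 and 17 weeks of age, and all 5 were labelled metaplastic or invasive. 3 tumours from nulliparous mice carried d16 HER2, at 21, 17 and 16 weeks. The first of these was labelled solid and the other two metaplastic or invasive. 4 tumours came from multiparous mice aged 17, 17, 16 and 16 weeks, with a HER2 form labelled unknown. Tumours 2 and 4 of that group were solid, and 1 and 3 mixed. Parity and HER2 form therefore cannot be told apart. Cells were captured with the ddSEQ system and SureCell 3′ chemistry, and the labels do not say that the tumours came from separate animals, so p-values measure the spread between these samples.

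Fibroblasts that share Pi16 and Dpt have been described in many mouse tissues, in the adventitia around vessels and in fascia. They are known for Cd34, Ly6a (Sca-1) and Dpp4 on their surface, and for secreting matrix organisers, complement proteins and chemokines. In tumours they are set apart from contractile fibroblasts, the myofibroblasts, which carry smooth muscle actin (Acta2) and lay down fibrillar collagen. In the mammary gland, such stromal cells lie around the ducts and vessels and are a source of growth factors for the epithelium.

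Depth differed widely between tumours. The total ran from 140348 to 4394398 UMIs, and the median kept cell held from 449 to 4536 UMIs. The 2 tumours with no such fibroblast, p95 tumour 1 and d16 tumour 1, had median depths of 452 and 449 UMIs per cell. 0 of 177 and 0 of 363 kept cells allow shares of up to 1.69% and 0.826%, limits that cover counting error only. In p95 tumour 1 the share of 3 other tumours (0.987, 1.17 and 1.33%) was thus not detectable. Every share above 0 in another tumour lay above the limit for d16 tumour 1, but that limit takes no account of low depth. With cells thinned to 1000 UMIs and a threshold of 2 in place of 3, d16 tumour 1 kept 46 cells (limit 6.52%). Of the other tumours, only p95 tumours 3 and 4 lay above this, at 7.20 and 15.0%. An absence from d16 tumour 1 is therefore not shown. The Dpt and Pi16 type fibroblasts had a median of 3795 UMIs (329 to 15095) and 1526.5 detected genes. Median depths were 3928 UMIs in the Thbs4/Fmod type, 5062.5 in the Mmp13/Lrrc15 type and 1773 in cells outside the collagen class.

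The label was checked against markers that the selection did not use. Cd34, a sialomucin of vascular and adventitial stromal cells, was present in 74.8% of the selected cells and in 3.79% of cells outside the collagen class. Its pooled level was 928 CPM (a gene’s UMIs per 1000000 UMIs of the summed cells) in the selected cells, 93.2 in the Thbs4/Fmod type, 5.54 in the Mmp13/Lrrc15 type and 32.0 outside the collagen class. Ly6a stood at 2487, 331, 98.4 and 323 CPM in the same order, and Dpp4, the surface peptidase CD26, at 172, 9.61, 5.01 and 5.49 CPM. Dcn, the small proteoglycan decorin found in most fibroblasts, stood at 9499, 2427, 1159 and 149 CPM. These levels do not go against the name, although Pi16 itself had a UMI in 168 of the 242 cells and in none of the other 74. Acta2 was at 43.3 CPM, against 1313 and 1888 CPM in the other types.

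Markers of other cells were low in the selected cells. A list of 16 epithelial genes summed to 680 CPM, against 25560 CPM outside the collagen class and 654 and 634 CPM in the other fibroblast types. Over the 10 tumours the epithelial sum ran from 18 to 1923 CPM. 10 endothelial markers summed to 36.6 CPM, with Cldn5 and Emcn at 0, and ranged from 11.6 to 139 CPM. 10 pericyte markers summed to 91.5 CPM, with Higd1b, Des and Cox4i2 at 0. 10 markers of antigen-presenting and mesothelial cells summed to 117 CPM, against 6595 CPM outside the collagen class, with the mesothelial markers Msln, Upk3b and Lrrn4 at 0. 7 T and NK cell markers summed to 13.5 CPM, with Cd4, Cd8a, Nkg7 and Il7r at 0. 12 macrophage markers summed to 811 CPM, mostly Apoe, against 7524 CPM outside the collagen class. 8 neutrophil markers summed to 45.1 to 243 CPM in 9 tumours and to 5629 CPM in p95 tumour 2, where 30% of the 10 selected cells carried them. Cells outside the collagen class of that tumour held 2457 CPM of the same markers. A doublet score, in which each cell is compared with simulated pairs, marked 9 of the 242 cells (3.72%), against 233 of all 7366 (3.16%).

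Each of the 6 selecting genes was carried by most of the cells. Dpt, on chromosome 1 from 164796644 to 164824266 in GRCm38, had a UMI in 236 cells (97.5%) and gave 40.4% of the UMIs of the 6 genes. Efemp1, which encodes the elastic fibre protein fibulin-3, was detected in 87.2% of cells, and Clec3b, the plasminogen-binding protein tetranectin, in 79.8%. Pi16, on chromosome 17 from 29317680 to 29330593, was detected in 69.4%. Ogn, the small proteoglycan osteoglycin, followed at 67.8%, and Sfrp4, a secreted Wnt antagonist, at 62.8%. In cells outside the collagen class the same shares lay between 0.472% (Sfrp4) and 2.03% (Efemp1), at the lower median depth given above. The Thbs4/Fmod type, of similar depth, carried them more often. There Dpt was detected in 37.6% of cells, Pi16 in 36.1%, Ogn in 33.2%, Efemp1 in 15.6%, Clec3b in 12.2% and Sfrp4 in 7.32%. In the Mmp13/Lrrc15 type the shares lay between 0.302% (Clec3b) and 8.01% (Dpt). 79 cells carried all 6 genes and 70 carried 5, whereas 5 cells carried 1 gene alone. Dpt was the most abundant of the 6 in 157 cells, Efemp1 in 48 and Pi16 in 20.

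Few cells lay at the edge of the 3-UMI threshold, and more lay near that on collagen. The median cell held 34 UMIs over the 6 genes and the highest 171. 6 cells held 3 UMIs and 6 held 4, and 4 collagen cells stayed outside with 2. The cells with 3 UMIs had a median depth of 1149 UMIs and those with 2 a depth of 862. Another 109 collagen cells held 3 or more UMIs of the 6 genes but more of a rival sum, and 5 were tied. A further 59 kept cells with 3 or more lay below the collagen threshold, and 9 carried Ptprc. Of the selected cells, 48 had under 2% of their UMIs from the 3 collagens, around a median of 3.54%. A threshold of 2% would have left 3 of the 10 cells of p95 tumour 2, or 0.398% of its kept cells in place of 1.33%. Among the selected cells, 108 had no UMI of the Thbs4 sum and 183 none of the Mmp13 sum. Cilp and Mfap4 made up most of the rival transcripts that were there, at 447 and 442 CPM, whereas Tnn and Aldh1a2 were at 0.

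The 6 genes did not keep 1 ratio from tumour to tumour. Pi16 stood at 1173, 2761, 826 and 578 CPM in p95 tumours 2 to 5, at 924 and 653 CPM in d16 tumours 2 and 3, and at 486, 479, 1256 and 1384 CPM in multiparous tumours 1 to 4. p95 tumour 3 was the highest, and the other groups lay within the range of the p95 tumours or, in multiparous tumours 1 and 2, just below it. Dpt stood at 4925, 4312, 3788 and 1815 CPM in the same p95 tumours, at 3550 and 2225 CPM in the d16 tumours and at 2640, 4184, 5274 and 3380 CPM in the multiparous tumours. Tumours high in Dpt were not always high in Pi16, and multiparous tumour 2 combined 4184 CPM of Dpt with the lowest Pi16.

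**Figure D1:**
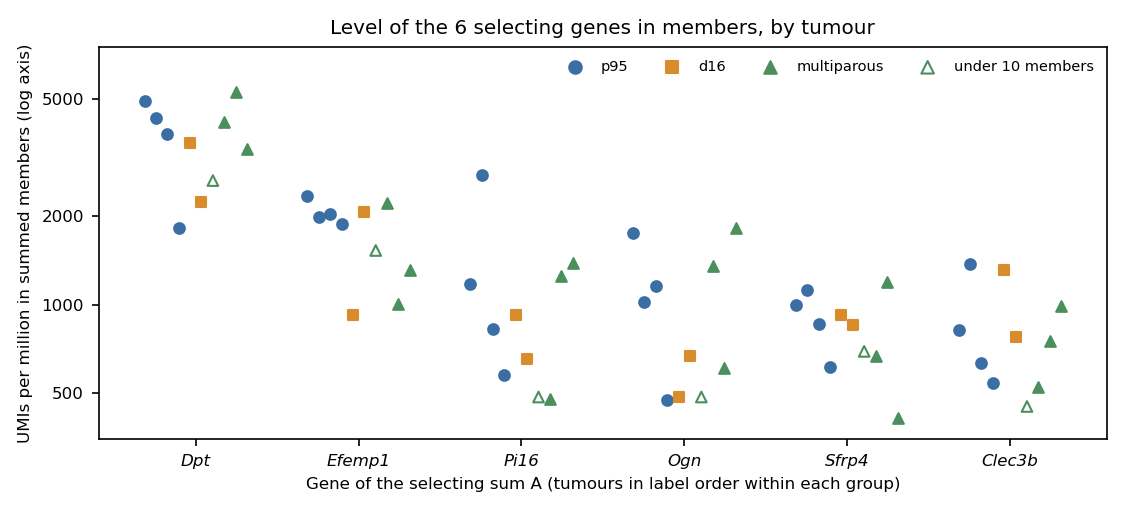
Level of the 6 selecting genes in the Dpt and Pi16 type fibroblasts of each tumour, in CPM of the summed cells on a log axis, 1 point per tumour, with the 8 cells of multiparous tumour 1 drawn open. Dpt lay between 1815 and 5274, and Pi16 had 1 high tumour at 2761 over a range that started at 479.

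Surface and secreted markers varied among tumours as well. Cd34 ranged from 340.5 CPM in d16 tumour 2 to 1248 CPM in p95 tumour 4, and Ly6a from 973 CPM in multiparous tumour 1 to 3987 CPM in p95 tumour 2. Dpp4 ran from 0 in the 8 cells of multiparous tumour 1 to 528 CPM in p95 tumour 2. Col15a1, a basement membrane collagen that marks parenchymal fibroblasts, ran from 67.7 CPM in multiparous tumour 3 to 1313 CPM in d16 tumour 2. Il6, the cytokine interleukin-6, was highest in multiparous tumour 1 at 4690 CPM and lowest in d16 tumour 2 at 340.5 CPM. C3, the central complement protein, lay between 1006 CPM (p95 tumour 5) and 5277 CPM (p95 tumour 2). Several of these extremes came from tumours with 8 or 10 cells. Mki67, a marker of dividing cells, was at 0 in 8 of the 10 tumours and at 6.75 and 30.1 CPM in multiparous tumours 2 and 3.

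Cells with and without a Pi16 UMI were set side by side as a description. The 168 cells with Pi16 were deeper, at a median of 4555.5 UMIs against 2713.5 in the 74 cells without. On the CPM scale, cells with Pi16 held more Dpp4 (204 against 66.4 CPM), Ly6c1 (1747 against 901), Mfap5 (1471 against 897) and Ogn (1136 against 644), each in 6 of the 6 tumours with at least 5 cells of both kinds. Mfap5 encodes a microfibril protein, and Ly6c1 a small surface antigen whose near-identical neighbour Ly6c2 makes its counts uncertain. Ly6a was higher in 5 of 6 tumours (2832 against 1341 CPM). Dpt was also higher with Pi16 in 5 of 6, at 4035 against 3065 CPM. Col15a1 went the other way in the pooled cells, at 241 against 415 CPM, but in 3 of the 6 tumours each way. Postn, the matrix protein periostin, stood at 2800 CPM with Pi16 and 4232 CPM without, and was lower with Pi16 in 4 of 6 tumours.

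The share of the fibroblasts varied widely within groups. Among p95 tumours 1 to 5 they made up 0, 1.33, 4.75, 13.3 and 4.19% of kept cells. Among d16 tumours 1 to 3 the shares were 0, 0.987 and 1.72%, and among multiparous tumours 1 to 4 they were 1.17, 4.53, 6.14 and 3.2%. The highest share, in p95 tumour 4, came from 62 of 467 cells, and the ranges of all 3 groups overlapped.

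The mean share of kept cells was 0.903% ± 0.864 (SD, n = 3) in d16 tumours and 4.71% ± 5.18 (SD, n = 5) in p95 tumours. The difference of -3.80 points had an exact two-sided permutation p of 0.321, where the smallest possible was 0.0179. Without p95 tumour 4 it was -1.66 points, and it was -0.170 among the tables with intact gene names and -5.68 among those with date-like names. Multiparous tumours averaged 3.76% ± 2.10 (SD, n = 4) and nulliparous tumours 3.28% ± 4.41 (SD, n = 8), with an exact p of 0.893. The sign of this small difference turned without multiparous tumour 3 (-0.316 points), and it turned further among the tables with date-like names. All 4 multiparous tumours had such names. The tables with intact names, p95 tumours 1 and 2 and d16 tumours 1 and 2, had the lowest median depths, 449 to 1196 UMIs per kept cell. Parity is thus mixed with table layout and depth here. Solid tumours averaged 2.57% ± 2.33 (SD, n = 3) and metaplastic tumours 3.75% ± 4.54 (SD, n = 7), with an exact p of 0.75, and without p95 tumour 4 the difference turned from -1.17 to 0.413 points.

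As a share of collagen cells, in tumours with at least 20 of these, the fibroblasts made up 17.2, 26.8, 44.6 and 17.8% in p95 tumours 2 to 5. The shares were 21.7 and 7.20% in d16 tumours 2 and 3, and 3.83, 35.1, 25.9 and 39.3% in multiparous tumours 1 to 4. The solid multiparous tumours 2 and 4 were the highest after p95 tumour 4. The 2 solid tumours averaged 37.2% ± 2.96 (SD) and the 6 metaplastic tumours 22.6% ± 12.6 (SD), a difference of 14.6 points with an exact p of 0.214, where 0.0357 was the smallest possible. Without p95 tumour 4 it was 19.0 points, with an exact p of 0.0476 before adjustment, which is the smallest that split allows. d16 tumours averaged 14.5% ± 10.3 (SD, n = 2) against 26.6% ± 12.8 (SD, n = 4) in p95 tumours, with an exact p of 0.467. That difference of -12.1 points was -19.4 without d16 tumour 2, -4.86 without d16 tumour 3 and -6.13 without p95 tumour 4. Multiparous tumours averaged 26% ± 15.8 (SD, n = 4) against 22.6% ± 12.6 (SD, n = 6), with an exact p of 0.733. After Benjamini-Hochberg adjustment over the 6 share tests every exact p was 0.893. Dissociation sets which cells are captured, and these shares are of captured cells.

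**Figure D2:**
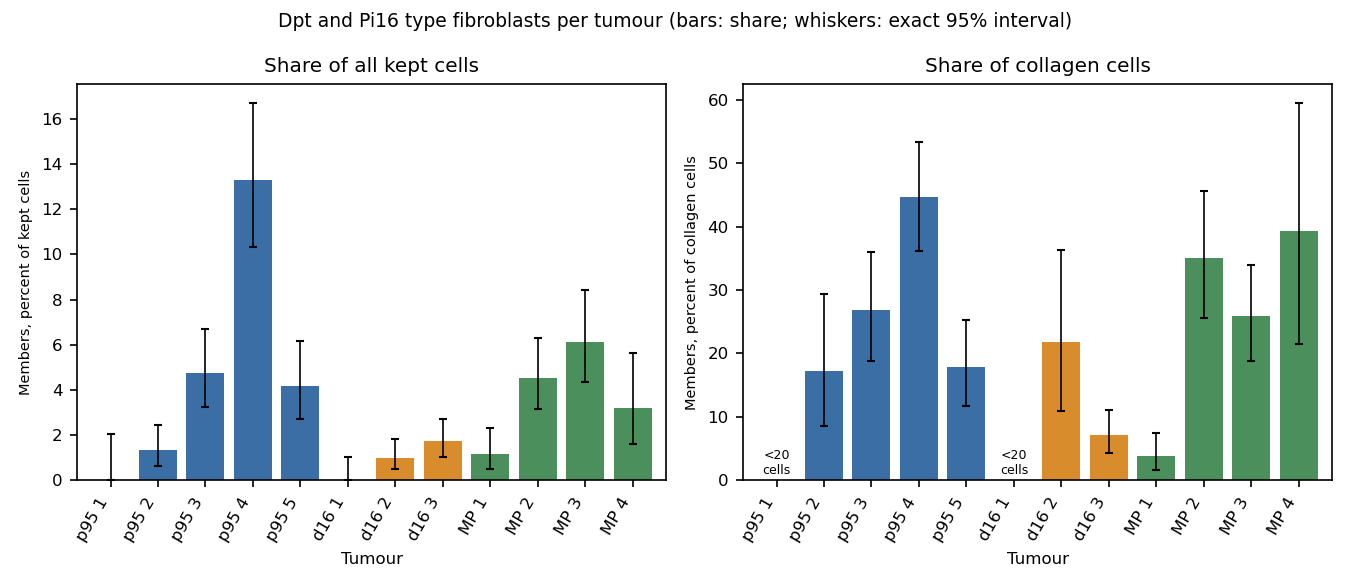
Dpt and Pi16 type fibroblasts as a percent of kept cells (left) and of collagen cells (right) in each tumour, with exact 95% binomial whiskers that cover counting error only; MP stands for multiparous. p95 tumour 4 was highest on both sides, at 13.3 and 44.6%, and the groups overlapped.

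The fibroblasts were then compared with the Thbs4/Fmod type of the same tumours. Thbs4 and Fmod encode matrix proteins of tendon and other load-bearing tissue. UMIs were summed per tumour and type in the 7 tumours with at least 10 cells of both, and edgeR's quasi-likelihood test was fitted with the tumour as a block. Ly6c1, Cd34, C3 and Ptx3 were among the genes higher in the Dpt and Pi16 type, and Acta2, Tagln and Col8a1 among those lower. Of 2146 genes tested, 260 were higher (12.1%) and 212 lower (9.88%) at an adjusted p under 0.05. The types were split on the selecting genes in the same cells, so these counts and p-values describe how far other genes followed that split and are no evidence of separate cell types. Leaving out p95 tumour 4 gave 310 calls in place of 472.

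Ly6c1 was the gene with the largest difference above the Thbs4/Fmod type. In d16 tumours 2 and 3 its normalised level was 1696 and 1520 CPM in the Dpt and Pi16 type, against 69.1 and 59.0 CPM. In p95 tumours 3 to 5 it was 3335, 1836 and 1477 CPM against 0, 149 and 27.1 CPM, and in multiparous tumours 2 and 3 it was 1716 and 2380 CPM against 97.0 and 222 CPM. Every tumour showed the same direction, which was a condition for naming a gene among the largest differences. The 2 types did not overlap. The log2 fold change was 4.39 ± 0.35 (SE), with an edgeR adjusted p of 1.61e-06. Cd34 averaged 1076 ± 444 CPM against 95 ± 107 CPM (SD, n = 7 tumours), a log2 fold change of 3.65 ± 0.49. Tnxb, a tenascin that spaces collagen fibrils, stood at 287 ± 132 against 10.4 ± 13.4 CPM. Ptx3, a secreted pattern recognition protein, stood at 6163 ± 3638 against 439.5 ± 226 CPM (log2 fold change 3.77). Prg4, the lubricating protein lubricin, followed at 3.75, Pcolce2, an enhancer of procollagen cleavage, at 3.56 and Adm, the vasoactive peptide adrenomedullin, at 3.28 on the log2 scale. Apoe, a lipid carrier, was higher by 3.22 on the log2 scale (1149 ± 689 against 120.3 ± 129 CPM). It is also the main transcript of the macrophage list, which summed to 18 to 1700 CPM over tumours, and the part of macrophage RNA in this difference was not tested.

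Acta2 showed the largest difference in the other direction. Its normalised level was 0 and 0 CPM in d16 tumours 2 and 3, 9.64, 12.1 and 30.5 CPM in p95 tumours 3 to 5, and 72.3 and 20.5 CPM in multiparous tumours 2 and 3. The Thbs4/Fmod type of the same tumours held 345 to 3194 CPM, with no overlap. The log2 fold change was -6.10 ± 0.40 (SE), with an edgeR adjusted p of 8.74e-07. Tagln, an actin-binding protein of contractile cells, was lower by a log2 fold change of -5.08, Col11a1 by -5.15 and Col8a1, a short-chain collagen, by -4.64. Igfbp2 and Igfbp3, which bind insulin-like growth factors, stood at -5.53 and -3.24, and the cell adhesion gene Ncam1 at -4.29.

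The Mmp13/Lrrc15 type was the other comparison. Mmp13 encodes an interstitial collagenase, and Lrrc15 marks tumour-associated myofibroblasts. 7 tumours had at least 10 cells of both types. Ly6c1, Cd34, C3 and Ptx3 were higher in the Dpt and Pi16 type here as well, and Acta2, Tagln, Col7a1 and Wnt5a were lower. Of 2466 genes tested, 440 were higher in the Dpt and Pi16 type (17.8%) and 406 lower (16.5%). The 2 comparisons share the Dpt and Pi16 cells of 6 tumours, so their values are given side by side and are not independent. In p95 tumour 2, whose selected cells carried neutrophil markers, the Mmp13/Lrrc15 type held 114 CPM of these. Without that tumour there were 950 calls in place of 846.

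Ly6c1 stood at 3415, 3406, 1876 and 1473 CPM in p95 tumours 2 to 5, at 1538 CPM in d16 tumour 3 and at 1766 and 2418 CPM in multiparous tumours 2 and 3. The Mmp13/Lrrc15 type held at most 31.2 CPM in any of the 7 tumours. The log2 fold change was 7.66 ± 0.30 (SE), with an edgeR adjusted p of 5.95e-10. Cd34 stood at 1107 ± 434 against 11.8 ± 12.2 CPM (log2 fold change 6.75), C3 at 3728 ± 1898 against 55.1 ± 53.7 (6.03) and Ptx3 at 7227 ± 3714 against 152 ± 171 (5.81). Scara5, a ferritin receptor, was higher by 7.25 on the log2 scale and Spon2, a secreted matrix protein, by 6.77. Penk, the enkephalin precursor, stood at 1206 ± 818 against 31.9 ± 32.8 CPM. Prg4 had 460 UMIs in the Dpt and Pi16 cells and 3 in the Mmp13/Lrrc15 cells, a ratio of 423 after scaling to depth (95% counting interval 144 to 2057).

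Genes lower than in the Mmp13/Lrrc15 type included Acta2, at 21.1 ± 25.9 against 2429 ± 1103 CPM (log2 fold change -6.75 ± 0.35). Tagln stood at -6.16, Col7a1, the anchoring fibril collagen, at -5.89, Myl9, a regulatory myosin light chain, at -5.05 and Wnt5a, a signalling ligand, at -5.04. Ptprn, a secretory granule protein, had 0 UMIs in the Dpt and Pi16 cells and 772 in the Mmp13/Lrrc15 cells. With the floor of 3 counts over the group, this was at least 93.3-fold lower. Gzme, of the granzyme family with near-identical copies, had 0 against 750 UMIs, at least 90.7-fold lower. The transcription factor Prdm1 had 1 UMI in the Dpt and Pi16 cells.

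**Figure D3:**
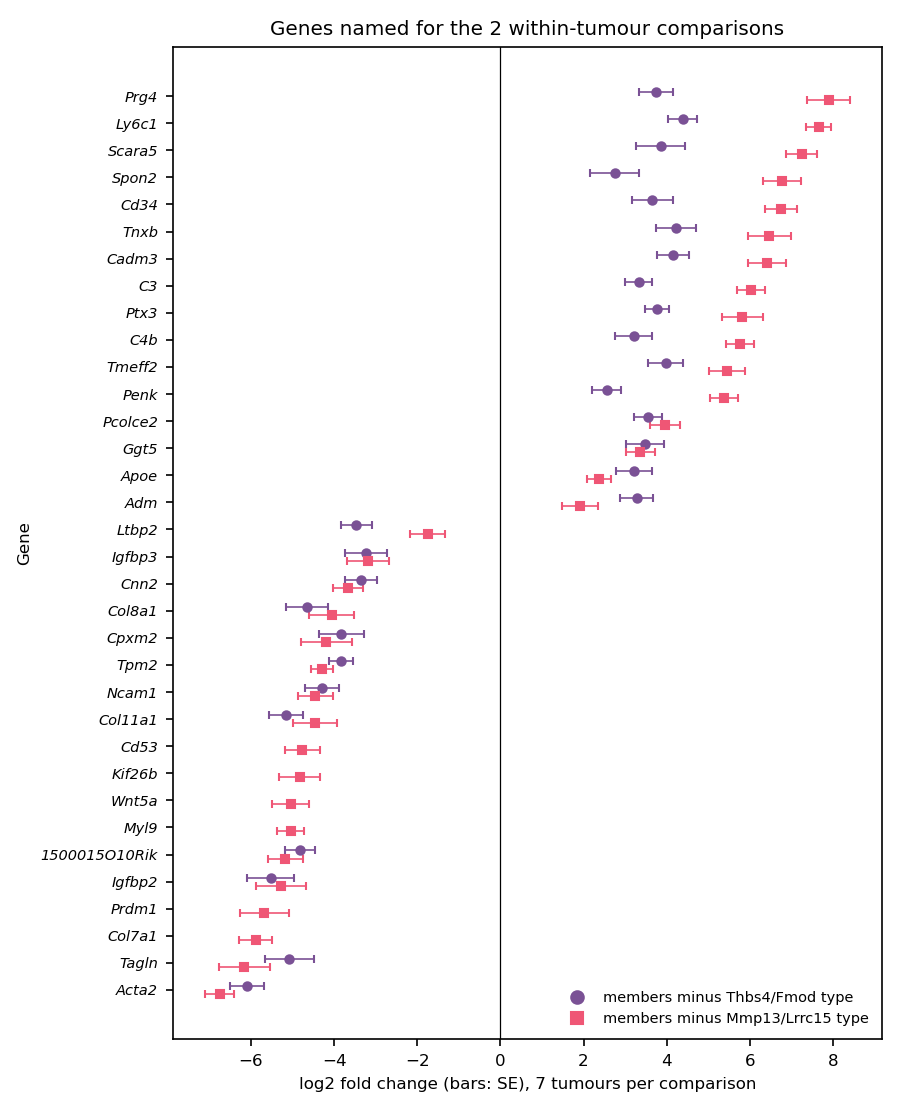
log2 fold changes (points) with standard errors (bars) of the genes named for the 2 within-tumour comparisons, Dpt and Pi16 type minus Thbs4/Fmod type (circles) and minus Mmp13/Lrrc15 type (squares), 7 tumours each; Ptprn and Gzme, with 0 UMIs, are left out. Ly6c1 lay at 4.39 and 7.66 and Acta2 at -6.10 and -6.75.

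Gene lists are described by counts and by the median of their tested members, beside a median over all tested genes of -0.02 against the Thbs4/Fmod type and -0.07 against the Mmp13/Lrrc15 type. Of 24 adventitial and progenitor genes, 16 were tested against the Thbs4/Fmod type, of which 12 were higher and 0 lower (median 1.92). Against the Mmp13/Lrrc15 type, 16 of 17 were higher and 0 lower (median 3.36). Cd55, a surface inhibitor of complement, was higher by 5.13 in the latter. Mfap5 was not called against the Thbs4/Fmod type (-0.36, edgeR adjusted p 0.144) and was higher than in the Mmp13/Lrrc15 type by 0.69. The members' summed level of the list ran from 12951 to 29198 CPM over 9 tumours, with a median of 19717 CPM. The Thbs4/Fmod type held 3027 to 7748 CPM in 8 tumours and the Mmp13/Lrrc15 type 1777 to 4338 CPM in 8, so the ranges did not overlap.

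Of 13 complement genes, 6 of the 8 tested were higher than in the Thbs4/Fmod type and 7 of 9 were higher than in the Mmp13/Lrrc15 type, with 0 lower in both. C3 was higher by 3.32 ± 0.32 and 6.03 ± 0.34 (log2, SE) in the 2 comparisons. C4b, an early component that shares reads with its copy C4a and is uncertain, was higher by 3.21 and 5.77, and Cfb, the factor B of the alternative pathway, by 2.08 and 4.15. The summed list ran from 7898 to 18919 CPM, against 3758 to 7499 CPM in the Thbs4/Fmod type and 2466 to 8037 CPM in the Mmp13/Lrrc15 type. The lowest Dpt and Pi16 value thus lay within the range of the latter.

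Of 22 inflammatory fibroblast genes, 19 were tested. 9 were higher and 1 lower against the Thbs4/Fmod type (median 1.24), and 12 higher and 1 lower against the Mmp13/Lrrc15 type (median 1.29). Has1, a hyaluronan synthase, was higher by 2.69 and 3.93, and Cxcl12, a chemokine for lymphocytes and progenitors, by 2.3 and 3.54. Cxcl12 went the other way in p95 tumour 2, at 201 against 497 CPM in the Mmp13/Lrrc15 type. Il6 was higher by 1.24 and 2.45. Ccl2, a monocyte chemokine, was higher than in the Mmp13/Lrrc15 type by 2.28 and stood at 1.35 against the Thbs4/Fmod type with an edgeR adjusted p of 0.0518. The neutrophil chemokines Cxcl2 and Cxcl5 were higher than in the Thbs4/Fmod type by 1.70 and 1.71. The list summed to 33946 to 59879 CPM in the Dpt and Pi16 type, above 8714 to 30601 and 12205 to 24923 CPM in the others.

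Of 23 myofibroblast genes, 0 of 20 tested were higher and 14 lower than in the Thbs4/Fmod type (median -1.94). 1 of 22 was higher and 17 lower than in the Mmp13/Lrrc15 type (median -2.53). The summed list ran from 5042 to 18405 CPM, below 26535 to 41926 CPM and 31050 to 48901 CPM in the others. 9 of 12 tested collagens of the fibrillar and associated families were lower than in the Thbs4/Fmod type and 11 of 12 lower than in the Mmp13/Lrrc15 type, such as Col12a1 at -2.16 and -2.84. Col14a1, which binds the surface of fibrils, was the 1 that was higher, by 1.60 and 3.11. Col1a1 and Col1a2 took part in the selection and stood at 4270 and 13545 CPM in the pooled cells, against 10061 and 25856 CPM in the Thbs4/Fmod type and 9341 and 21928 CPM in the Mmp13/Lrrc15 type. Col3a1, of the same selecting sum, stood at 24232 CPM against 14073 and 9874 CPM.

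**Figure D4:**
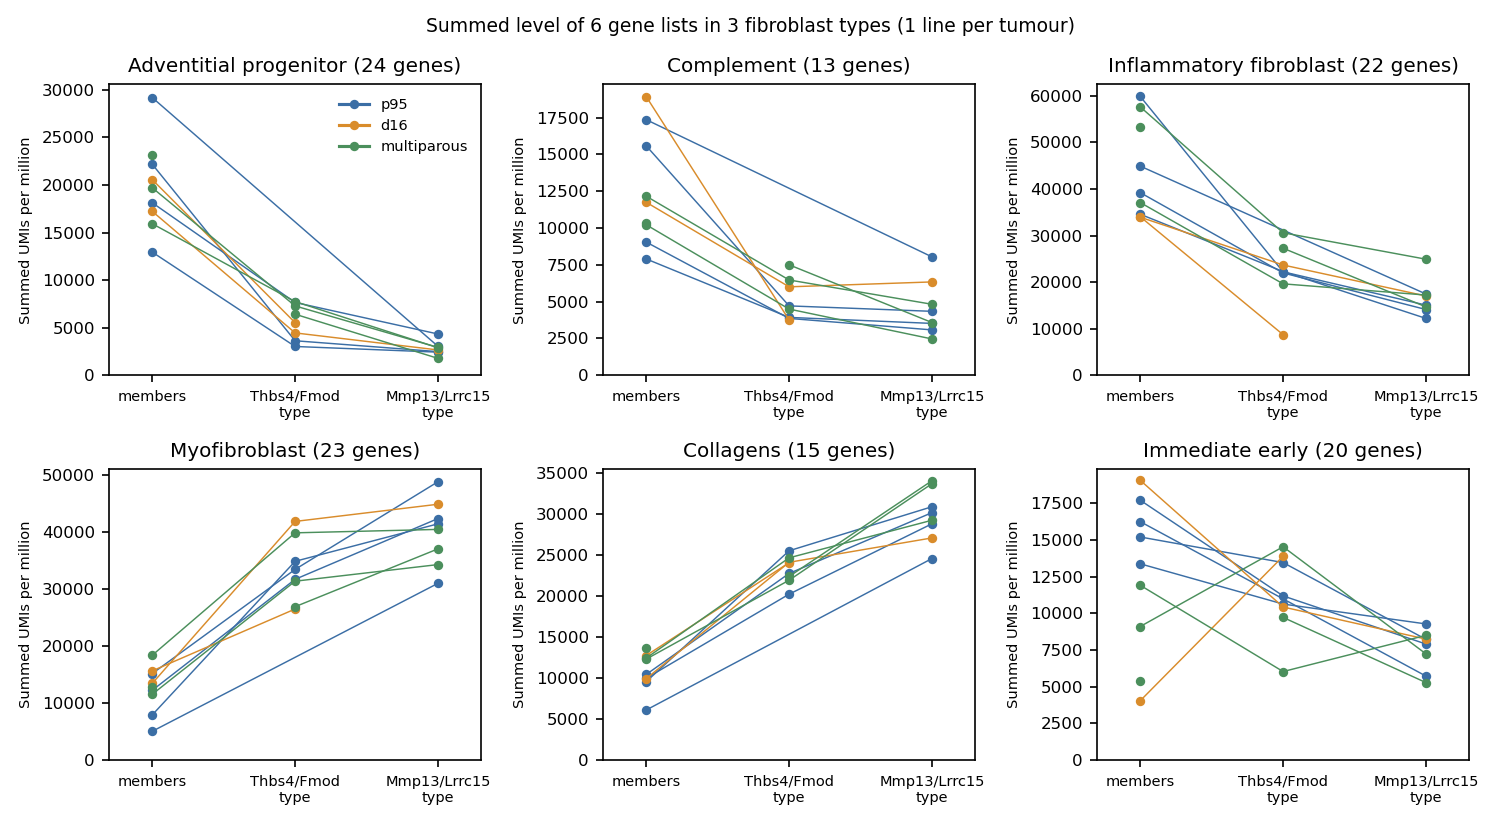
Summed level of 6 gene lists, in CPM, in the Dpt and Pi16 type, the Thbs4/Fmod type and the Mmp13/Lrrc15 type, with 1 line per tumour over the types that had at least 10 cells. The adventitial list lay at 12951 to 29198 in the Dpt and Pi16 type and the myofibroblast list at 5042 to 18405, and neither range met those of the other types.

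Other matrix genes were divided, and their counts are to be read beside the 12.1% higher and 9.88% lower of all genes against the Thbs4/Fmod type and the 17.8% and 16.5% against the Mmp13/Lrrc15 type. Of 22 genes shared by most fibroblasts, 2 were higher and 9 lower than in the Thbs4/Fmod type, and 4 higher and 13 lower than in the Mmp13/Lrrc15 type. Dcn was higher by 2.08 and 2.99, and Pdgfrb, a growth factor receptor of pericytes and fibroblasts, was lower by a log2 fold change of -1.63 and -2.18. Pdgfra was not called in either comparison (0.43 and 0.12, edgeR adjusted p 0.367 and 0.767), nor was Fap (0.14 and 0.12, adjusted p 0.795 and 0.776). Of 8 small leucine-rich proteoglycans tested, 4 and 5 were higher and 1 lower in each comparison, with Prelp at 0.92 and 3.75. The call of Prelp against the Thbs4/Fmod type (edgeR adjusted p 0.0493) was lost in 11 of 17 alternatives, among them those without d16 tumour 2, multiparous tumour 2 or p95 tumour 3, 4 or 5 (adjusted p up to 0.120). Among 17 elastic fibre and latent growth factor genes tested, 3 and 6 were higher and 3 lower in each. Ltbp1 and Ltbp4, which hold latent TGF-beta in the matrix, were higher by 2.39 and 1.53, and by 3.53 and 2.78, whereas their relative Ltbp2 stood at -3.46 and -1.75. Of 13 basement membrane genes tested, 3 were higher in each comparison and 2 and 5 lower. Loxl3, a collagen cross-linking oxidase, was lower at -2.99 and -3.16, within a list of 21 collagen-modifying genes tested of which 3 and 11 were lower. Col15a1 was lower in both comparisons, at -1.12 and -1.19, but against the Thbs4/Fmod type it lost its call (edgeR adjusted p 0.0357) without multiparous tumour 2 or 3, without p95 tumour 3 or 4 (up to 0.0851) and with no block (0.152).

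Signalling genes differed in both directions. Fst, an inhibitor of activins, was higher by 1.81 and 2.93, and Igfbp6 by 1.64 and 3.46. Inhba, an activin subunit, was lower than in the Mmp13/Lrrc15 type at -3.47. Of the 17 and 18 TGF-beta pathway genes tested, 5 were higher in each comparison and 6 and 8 lower. Tgfbr3, the co-receptor betaglycan, was higher by 2.09 and 3.26, and the ligand Tgfb3 was lower at -2.34 and -2.32. Of 5 and 6 tested Wnt pathway genes, 3 and 4 were lower, among them Dkk3 at -2.88 and -3.45 and Wnt11 at -1.69 and -1.75. Sfrp1, a Wnt antagonist, was higher than in the Mmp13/Lrrc15 type by 1.75. Of 17 proteases and inhibitors tested, 5 were higher in each comparison and 4 and 3 lower. Adamts5, an aggrecan-cleaving protease, was higher by 1.80 and 3.08, and Serpine2, a protease inhibitor, lower at -1.74 and -3.29, the former not called without p95 tumour 4 (edgeR adjusted p 0.0627).

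Of 20 transcription factors tested, 3 were higher and 1 lower against the Thbs4/Fmod type and 11 higher and 2 lower against the Mmp13/Lrrc15 type. The former counts are near the 12.1% and 9.88% of all genes. Nfib was higher by 1.28 and 3.35, and Klf9 by 1.66 and 1.68. Of 20 immediate early genes, which dissociation is known to induce, 1 was higher than in the Thbs4/Fmod type and 12 than in the Mmp13/Lrrc15 type, with 0 lower. Fos stood at 0.18 (edgeR adjusted p 0.878) and 1.45, and Atf3 at 1.18 and 1.94. The part of dissociation in these values was not tested. Of 8 and 9 adipocyte-related genes tested, 5 and 7 were higher, among them Lpl, lipoprotein lipase, at 2.61 and 2.05. Gpc3, a glypican of the list of parenchymal fibroblast genes, was higher by 2.31 and 2.72. Of that list 10 were tested, with 3 higher in each comparison and 3 and 5 lower. Gstm1, a detoxifying transferase, was higher by 2.75 and 3.94, and the metal-binding gene Mt2 by 1.91 and 3.08. Of 11 hypoxia and glycolysis genes tested, 3 were higher in each comparison and 2 and 5 lower, with Hk2, a hexokinase, at 1.27 and 1.48. Only 1 of 25 cell division genes, Tubb5, was abundant enough to be tested, and it was lower at -0.70 and -0.94. Against the Thbs4/Fmod type that call (edgeR adjusted p 0.0453) was lost in 7 of 17 alternatives, among them DESeq2 (0.0631) and those without d16 tumour 3, p95 tumour 4 or p95 tumour 5 (up to 0.142).

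Parity was the group comparison with the most calls. In the 9 tumours with at least 10 of the fibroblasts, edgeR's test called 5 of 1676 genes (0.298%) higher in the 3 multiparous than in the 6 nulliparous tumours and 0 lower (0%), with 186 genes at an unadjusted p under 0.05. The called genes were Col8a1, Cxcl3, Ptgs2, Odc1 and Aspn, and the HER2 form of the multiparous tumours is not known.

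Col8a1, on chromosome 16 from 57624258 to 57754737, encodes a collagen of vessel walls and remodelling tissue. It stood at 304, 399 and 701 CPM in the fibroblasts of multiparous tumours 2, 3 and 4. In p95 tumours 2 to 5 it stood at 0, 66.5, 12.0 and 69.4 CPM, and in d16 tumours 2 and 3 at 0 and 15.6 CPM. The 2 sets of tumours did not overlap, and the log2 fold change was 3.74 ± 0.54 (SE), with an edgeR adjusted p of 0.00675. It was carried by 21.2 to 45.5% of cells in the multiparous tumours and by 0 to 16.7% in the nulliparous tumours. Col8a1 was abundant in the Thbs4/Fmod type irrespective of parity, at medians of 2247 CPM in multiparous and 2163 CPM in nulliparous tumours, and its median outside the collagen class was 139 and 147 CPM.

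Cxcl3, a neutrophil chemokine, stood at 1060, 1708 and 2409 CPM in multiparous tumours 2 to 4. It stood at 117, 459, 141 and 80.9 CPM in p95 tumours 2 to 5 and at 438 and 389 CPM in d16 tumours 2 and 3 (log2 fold change 2.72 ± 0.47, edgeR adjusted p 0.0252). Again no nulliparous tumour reached the multiparous range. The medians of Cxcl3 in multiparous and nulliparous tumours were 197 and 54.3 CPM in the Thbs4/Fmod type and 212 and 103 CPM in the Mmp13/Lrrc15 type. Outside the collagen class they were 228 and 345 CPM. The ranges overlapped in each of these, and a higher median was thus not particular to the Dpt and Pi16 type. Ptgs2, the inducible cyclooxygenase of prostaglandin synthesis, on chromosome 1 from 150100031 to 150108227, stood at 1856, 1813 and 1618 CPM in the multiparous tumours. It stood at 762, 885, 676 and 520.3 CPM in p95 tumours 2 to 5 and at 584 and 544.5 CPM in d16 tumours 2 and 3 (1.46 ± 0.26, edgeR adjusted p 0.0252). In the Thbs4/Fmod type the medians of Ptgs2 were 1075 CPM in multiparous and 1374 CPM in nulliparous tumours, and in the Mmp13/Lrrc15 type 497 and 915 CPM. For Col8a1, the parity difference exceeded that in the Thbs4/Fmod type by 2.72 and that in the Mmp13/Lrrc15 type by 3.23 on the log2 scale, with edgeR interaction adjusted p of 0.476 and 0.194.

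Odc1, the first enzyme of polyamine synthesis, stood at 169, 271 and 216 CPM in the multiparous tumours against 0 to 80.9 CPM in the nulliparous tumours (2.07 ± 0.40, edgeR adjusted p 0.0429). Outside the collagen class the medians of Odc1 were 209 and 51.4 CPM. They were 255 and 136 CPM in the Mmp13/Lrrc15 type and 104 and 101 CPM in the Thbs4/Fmod type. Aspn, the small proteoglycan asporin, stood at 594, 963 and 1187 CPM against 109 to 528 CPM (1.91 ± 0.38, edgeR adjusted p 0.0429). Neutrophil markers summed to 60.7, 45.1 and 144 CPM in the fibroblasts of the 3 multiparous tumours and to 62.2 to 5629 CPM in the nulliparous tumours. Epcam, an epithelial marker, stood at 148, 30.1 and 0 CPM in the fibroblasts of multiparous tumours 2, 3 and 4. In the nulliparous tumours it stood at 0 to 50.9 CPM. The part of epithelial RNA in these calls was not tested. 14 myofibroblast genes were tested here, of which 1 was higher (median 0.53, beside 0.04 over all genes), and of 20 immediate early genes 0 were called (median -0.69).

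These calls rest on few tumours. Col8a1 stayed past the threshold when any 1 tumour was left out. It did not among the 5 tumours with 20 or more of the fibroblasts (edgeR adjusted p 0.113), nor without predicted doublets (0.0515). The latter leaves multiparous tumour 4 and p95 tumour 2 with 9 of the fibroblasts each, so both drop out. Predicted doublets made up 18.2% of the fibroblasts in multiparous tumour 4, 10% in p95 tumour 2 and 9.09% in multiparous tumour 2. DESeq2 gave no adjusted p for Col8a1 and Odc1 and called the other 3. Each of the other 4 genes lost its call without multiparous tumour 3, without multiparous tumour 4, without p95 tumour 4 and without p95 tumour 5, and without d16 tumour 3 as well for Ptgs2, Odc1 and Aspn. Ptgs2 and Odc1 also lost it without multiparous tumour 2, Odc1 without p95 tumour 3 and Aspn without d16 tumour 2.

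**Figure D5:**
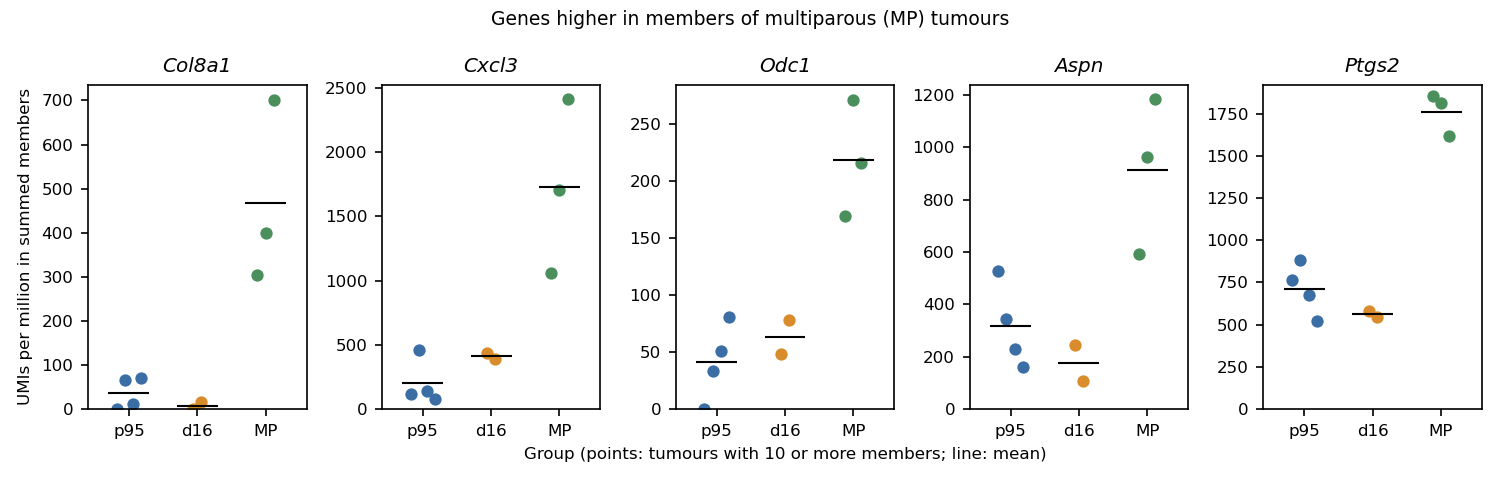
Level of the 5 called genes in the Dpt and Pi16 type fibroblasts, in CPM, by group; each point is a tumour with at least 10 of the cells, the line is the mean and MP stands for multiparous. The 3 multiparous tumours lay above all 6 nulliparous tumours for each gene, as for Col8a1 at 304 to 701 against 0 to 69.4.

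Solid tumours, here multiparous tumours 2 and 4, were compared with the 6 metaplastic tumours, which were all nulliparous, so growth pattern and parity cannot be told apart. These are the same 8 tumours, split the same way, as in the parity comparison without multiparous tumour 3. The values below thus repeat that fit and are no separate result. edgeR called 1 of 1739 genes higher (0.0575%) and 0 lower (0%), with 125 at an unadjusted p under 0.05. The 1 gene was Col8a1, with a log2 fold change of 3.83 ± 0.61 (SE) and an adjusted p of 0.0268. It was lost in 7 of 16 alternatives. These were the fits without multiparous tumour 4 (adjusted p 0.228), p95 tumour 4 (0.125), p95 tumour 5 (0.0576), d16 tumour 3 (0.0562) or p95 tumour 2 (0.0540), within the date-like table layout (0.0696) and with the layout as a covariate (0.110). Cxcl3 followed at 2.73 and Pamr1, a secreted protease-like protein, at 2.25, both with an adjusted p of 0.109.

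The HER2 forms were compared in d16 tumours 2 and 3 and p95 tumours 2 to 5. Of 1582 genes tested with edgeR, 0 were higher and 0 lower (0%), 68 had an unadjusted p under 0.05, and DESeq2 also called 0, with 42 genes at an unadjusted p under 0.05. Sox9, a transcription factor of matrix-forming cells, had one of the smallest p-values. It stood at 340.5 and 404 CPM in the d16 tumours against 58.6, 133, 80.8 and 69.4 CPM in p95 tumours 2 to 5 (1.96 ± 0.45, edgeR adjusted p 0.643). Apod, a lipid-binding lipocalin, stood at 3405 and 576 CPM against 235, 366, 353 and 312 CPM (2.44 ± 0.56, adjusted p 0.643). Its fold change rested on d16 tumour 2, at 0.77 on the log2 scale without that tumour and at 3.16 without d16 tumour 3, where the edgeR adjusted p was 0.00228. Cxcl1 stood at 7636 and 8712 CPM against 25797, 21719, 13295 and 15125 CPM (-1.25 ± 0.34, adjusted p 0.998). These 3 genes were named for their small p-values, so the lack of overlap between their d16 and p95 values adds nothing to those. None passed the adjusted threshold, and 1 of the 2 d16 tumours held only 10 of the cells. Mgp, an inhibitor of calcification, stood at 11429 and 545 CPM against 469, 99.8, 416 and 636 CPM, and its high value came from 235 UMIs in 30% of the 10 cells of d16 tumour 2.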

How the data were processed

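Single cells of 12 mammary tumours were captured with the ddSEQ system, and several libraries of a tumour were joined in 1 table, per the labels. The authors deposited raw UMI counts of 24421 genes per cell, on GRCm38, with Seurat 3.0.2 among the tools, per the submitters’ processing notes. The aligner, the counting and the cell calling are not given in the sources used here. 8 of the 12 deposited tables carried date-like gene names and 4 intact names. 1708 altered names were restored and 27 date-like names were mapped by position. The tables held 0 mitochondrial genes. Free RNA was not removed. A further list of markers of other cells is not reported here.

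Of 8486 barcodes, 7366 with at least 200 detected genes were kept. Predicted doublets were kept, and left out in an alternative. The cells and gene lists were chosen with earlier results of these data known. UMIs were summed per tumour and type without the 22 selecting genes and tested with edgeR 4.0.16 (R 4.3.3), with its own filter on low counts, TMM scaling, a quasi-likelihood fit and Benjamini-Hochberg adjustment over all genes tested. Within-tumour comparisons had the tumour as a block, and group comparisons used tumours with at least 10 of the fibroblasts. Values called normalised levels or given as mean ± SD for the 2 within-tumour comparisons are TMM-scaled CPM of the tested genes, and all other CPM are plain UMIs per 1000000 UMIs of the summed cells. Shares were compared with exact permutation tests over tumours, and binomial intervals were taken from scipy 1.17.1. Intervals and limits cover counting error only. Gene positions are from GENCODE M21.

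Named genes were up to 12 on each side with the largest fold change among those with an adjusted p under 0.05, an average log2 CPM of at least 5 and 1 direction in every tumour. Up to 4 called genes of each list and a marker panel were named too, and where fewer than 5 genes passed, the 5 with the smallest p. Alternatives covered DESeq2 1.42.0, RLE scaling, no filter, stricter cell rules, thinning to 1000 UMIs, no block and each tumour left out. Fits within 1 table layout, fits without shallow tumours and the interaction with parity were chosen after seeing the data. The edgeR fits were tested on simulated data. No table repeated another, since the most alike pair of tumours still had a chi-square of 3.94 per degree of freedom and at most 3 barcodes were shared. The titles of d16 tumour 2 and p95 tumour 2 share a number, as do those of d16 tumour 3 and p95 tumour 4, with no meaning stated.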

Additional observations from a re-analysis of the deposited data

Results flagged for a closer look

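Single tumours stood far from the rest of their group in 13 of 95 group checks of the fibroblasts' share and marker levels. For independent checks, chance alone gives about 1 in 20. The groups overlap (the metaplastic tumours with these cells are also nulliparous), so most tumours below appear under both. For marker levels the nulliparous and metaplastic sets were the same 6 tumours, and a value flagged in one was flagged again in the other. The checks are thus not independent, and 13 of 95 cannot be set against that rate.

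The fibroblasts made up 13.3% of the kept cells of p95 tumour 4, against 0 to 4.75% in the other nulliparous and metaplastic tumours. Pi16 stood at 2761 CPM in p95 tumour 3, against 578 to 1173 CPM in the other nulliparous and metaplastic tumours. Efemp1 was low in d16 tumour 2, at 924 CPM against 1885 to 2345 CPM. Pi16 and Efemp1 are selecting genes, so their levels are given as a description only. Pdgfrb was high in d16 tumour 3, at 280.0 CPM against 53.2 to 132 CPM. Tcf21, a transcription factor of some tissue fibroblasts, stood at 8.98 CPM in p95 tumour 4 with the other p95 tumours at 0. In d16 tumour 3 it stood at 31.1 CPM. These Tcf21 values came from 3 and 2 UMIs, each in 1 cell. Krt8, an epithelial keratin, stood at 176 CPM in p95 tumour 2, from 3 UMIs, against 0 to 41.9 CPM. d16 tumour 2 and p95 tumour 2 had 10 of the cells each.

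The difference between the Dpt and Pi16 type and the Mmp13/Lrrc15 type was compared between 2 multiparous and 5 nulliparous tumours. An edgeR interaction test called 4 of 2466 genes, with 135 at an unadjusted p under 0.05. The HER2 form of the multiparous tumours is not known, so parity and HER2 form cannot be told apart here. Against the Thbs4/Fmod type the same test called 0 of 2146 genes, with 103 at an unadjusted p under 0.05. In both tests the genes under that threshold were near the 0.05 of all tested genes that chance alone gives. DESeq2 was not run on the interaction. Values here are normalised CPM.

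Cpxm2, a carboxypeptidase-like secreted protein, differed by 5.6 on the log2 scale (edgeR adjusted p 0.0068). It stood at 83.6 and 354 CPM in the Dpt and Pi16 type of multiparous tumours 2 and 3. In that type it was at 0 in p95 tumours 2, 4 and 5, at 9.84 CPM in p95 tumour 3 and at 21.1 CPM in d16 tumour 3. These nulliparous values lie at or near the floor, so the size of the log2 difference is uncertain. The Mmp13/Lrrc15 type held 509.9 and 1060 CPM against 705 to 1836 CPM. Col12a1 differed by 1.85 (adjusted p 0.0490), with 1264 and 1251 CPM against 400 to 522 CPM in the Dpt and Pi16 type and 3526 and 3971 CPM against 4034 to 6032 CPM in the Mmp13/Lrrc15 type. Saa3, an acute phase protein, differed by -4.07 (adjusted p 0.0191). Its level in the Dpt and Pi16 type was 622.7 and 625.3 CPM in the multiparous tumours, within the 0 to 8132 CPM of the nulliparous tumours. The Mmp13/Lrrc15 type held 1355 and 1465 CPM in the multiparous and 15.1 to 405 CPM in the nulliparous tumours, so the groups lay apart in that type. Rarres2, the chemokine-like protein chemerin, differed by -2.10 (adjusted p 0.0490), with 2426 and 2147 CPM against 2217 to 6447 CPM in the Dpt and Pi16 type and 612 and 1016 CPM against 148 to 560 CPM in the Mmp13/Lrrc15 type. The cause of these differences was not tested.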

How the results depend on the processing

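The depth of the fibroblasts limits every comparison. Their sums ran from 17056 UMIs in p95 tumour 2 to 334184 in p95 tumour 4, and the filter on low counts left 1582 to 2466 genes. No called gene changed sign under any alternative that was run. Against the Thbs4/Fmod type 472 genes were called. Requiring 20 cells per tumour gave 241, and leaving out 1 tumour 310 to 501. Against the Mmp13/Lrrc15 type 846 were called, 1343 with no filter on low counts and 644 to 950 without 1 tumour. Dropping the tumour as a replicate block gave 394 and 779 calls in these comparisons.

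Multiparous against nulliparous tumours gave 5 calls. There were 9 with DESeq2 (3 of the 5 among them, and no adjusted p for 1041 genes), 3 with RLE scaling, 55 with no filter, 8 from cells with 500 detected genes, 14 with the table layout as a covariate and 11 within the date-like layout. Leaving out 1 tumour gave 1 to 8. With 20 cells per tumour there were 0 (edgeR, 296 at an unadjusted p under 0.05), and without predicted doublets also 0 (274). Solid against metaplastic tumours gave 1 call, 4 with DESeq2, 27 with no filter, 2 from cells with 500 detected genes, 0 with the layout covariate (157 at an unadjusted p under 0.05), 0 within the date-like layout (216) and 0 to 1 without 1 tumour, where the 1 call without multiparous tumour 4 or d16 tumour 3 was not Col8a1. d16 against p95 gave 0 calls, 7 with no filter, 1 within the date-like layout and 0 to 2 without 1 tumour. With the shared title number as a replicate block there were 0 calls (55 at an unadjusted p under 0.05). The number pairs 2 tumours with 2, its meaning is not stated, and deviations of the pairs correlated at 0.169 and 0.0816 over 956 genes. Couples of d16 and p95 tumours without a shared number ran from -0.169 to 0.128, so these values do not set the pairs apart.

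Of the shares of kept cells, the multiparous minus nulliparous difference of 0.479 points was -0.190 after thinning, -2.22 within the date-like layout and -0.316 to 1.91 without 1 tumour. The solid minus metaplastic difference was -2.15 to 0.413 without 1 tumour, and 0.113 without d16 tumour 1. Of the shares of collagen cells, multiparous minus nulliparous was -0.947 to 10.9 points and solid minus metaplastic 11.6 to 19.0 points without 1 tumour. The cause of these shifts was not tested beyond what each alternative leaves out. Too few tumours were left to run d16 against p95 with 20 cells per tumour, 5 UMIs of the selecting genes or 500 detected genes, and solid against metaplastic with 20 cells per tumour or without doublets.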
